A study of Mus musculus with 16 samples.

Results

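The late step of epiblast-like differentiation in TKO cells, from day 4 to day 7, was compared across all genes in bulk RNA-seq libraries. The 2 libraries labelled E14 TKO D7 were set against the 2 labelled E14 TKO D4, which are 4 of the 16 libraries of the series. The members were chosen by these labels alone, and no measured value entered the choice. The whole series holds wild-type (WT) and TKO cells on days 0, 2, 4 and 7, in 8 groups of 2 libraries. E14 is a male mouse embryonic stem cell line (ES-E14TG2a). All cells began on fibronectin in serum-free N2B27 medium with vitamin C, LIF and the inhibitor pair against MEK and Gsk3, which holds them in the naive state. They were then moved to Fgf2, Activin A and a little knock-out serum, and by the protocol in the labels they were dissociated with accutase and replated once more at day 4. That replating lies inside the interval compared, in both genotypes, and its part in any difference was not tested. The labels do not spell out TKO. It was taken to mean loss of the DNA methyltransferases Dnmt1, Dnmt3a and Dnmt3b, which leaves embryonic stem cells nearly without CpG methylation. The labels name the libraries biological replicates without saying whether separate cultures or clones were used, so p-values measure the spread between these libraries only.

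Epiblast-like cells stand between the naive stem cell and the lineages of gastrulation. Naive cells rely on Esrrb, Klf4 and Zfp42; formative cells carry Fgf5, Otx2 and Pou3f1 on top of the core factors Pou5f1 and Sox2. Under lasting Activin and Fgf signals the epiblast can enter the primitive streak, where T, Eomes and Mixl1 mark the cells that will give mesoderm and definitive endoderm. DNA methylation is laid down genome-wide over the same interval and silences germline genes and repeats, a step that methyltransferase-deficient cells cannot take.

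The levels of the presumed target genes were examined first. Dnmt1, the maintenance methyltransferase, stood at 36.2 and 40.7 CPM (counts scaled to a common effective library size) on day 4 and at 36.3 and 37.2 CPM on day 7 in TKO cells. WT cells carried 313 and 320 CPM on day 4 and 310 and 313 CPM on day 7, so all TKO libraries lay far below. Dnmt3b, a de novo methyltransferase, fell from 431 and 757 to 307 and 290 CPM (log2 fold change -0.99 ± 0.19 SE, adjusted p = 0.00091), against 965 to 1516 CPM in the WT libraries. Dnmt3a, the other de novo enzyme, was at 187 and 33.9 CPM on day 4 and at 22.0 and 23.8 CPM on day 7. For Dnmt3a, though not for Dnmt1, the first day 4 library thus lay apart from the other TKO libraries of these days. Its Dnmt3a level was near the 200 and 201 CPM of WT cells on day 7, which is another day. The size of the Dnmt3a fall rests largely on this first day 4 library, since the second, at 33.9 CPM, lay much closer to day 7. The call of Dnmt3a (-2.27 ± 0.58, adjusted p = 0.0101) was lost without day 7 replicate 1 or 2 (adjusted p = 0.0595 and 0.0527). The labels do not say which parts of these genes were removed, so residual transcripts do not check the labels. Uhrf1, the cofactor that guides Dnmt1, was not called, at 436 and 421 CPM against 424 and 395 CPM (adjusted p = 0.501).

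The 2 TKO day 4 libraries differed over 2-fold from each other at more genes than those of any other group. Of 11240 genes at 5 CPM or more, 194 were over 2-fold apart between them, 96 higher and 98 lower in replicate 1. The 2 TKO day 7 libraries had 19 such genes, and the other 6 groups had between 6 and 121. By the median absolute log2 difference, the TKO day 4 pair (0.115) lay below the WT pairs of day 0 (0.22) and day 2 (0.133). Their depths were 47064338 and 42625417 estimated counts on day 4 and 33168178 and 34007067 on day 7, within the 33168178 to 58197630 of the series. The counts of calls were therefore also computed without either day 4 library. Genes of the streak and endoderm were among those higher in replicate 1, for instance T at 5.71 against 1.03 CPM and Cubn at 25.3 against 2.44 CPM.

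Of 18489 genes tested with edgeR's quasi-likelihood test, 8385 (45.4%) were called, with a p adjusted by Benjamini and Hochberg of less than 0.05. Day 7 was higher for 4049 genes (21.9%) and lower for 4336 (23.5%), and the median log2 fold change over all genes was -0.01. Those percentages are the background against which the counts of each gene group are read. For counts in the WT step the matching shares were 17.7% higher and 19.1% lower. For the difference between genotypes (interaction) they were 8.96% larger and 9.81% smaller in TKO. At 2-fold or more there were 2168 higher (11.7%) and 1612 lower genes (8.72%). At 8-fold or more there were 537 higher (2.9%) against 190 lower (1.03%), so the large changes were mostly rises. Without day 4 replicate 1, 6628 of the calls (79.0%) were kept with the same sign, and without replicate 2, 6760 (80.6%) were kept. Fewer calls were kept when a day 7 library was left out, or when a call had to pass without each day 4 library in turn. In bulk libraries, fewer cells of a type and less RNA per cell cannot be told apart.

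**Figure D1:**
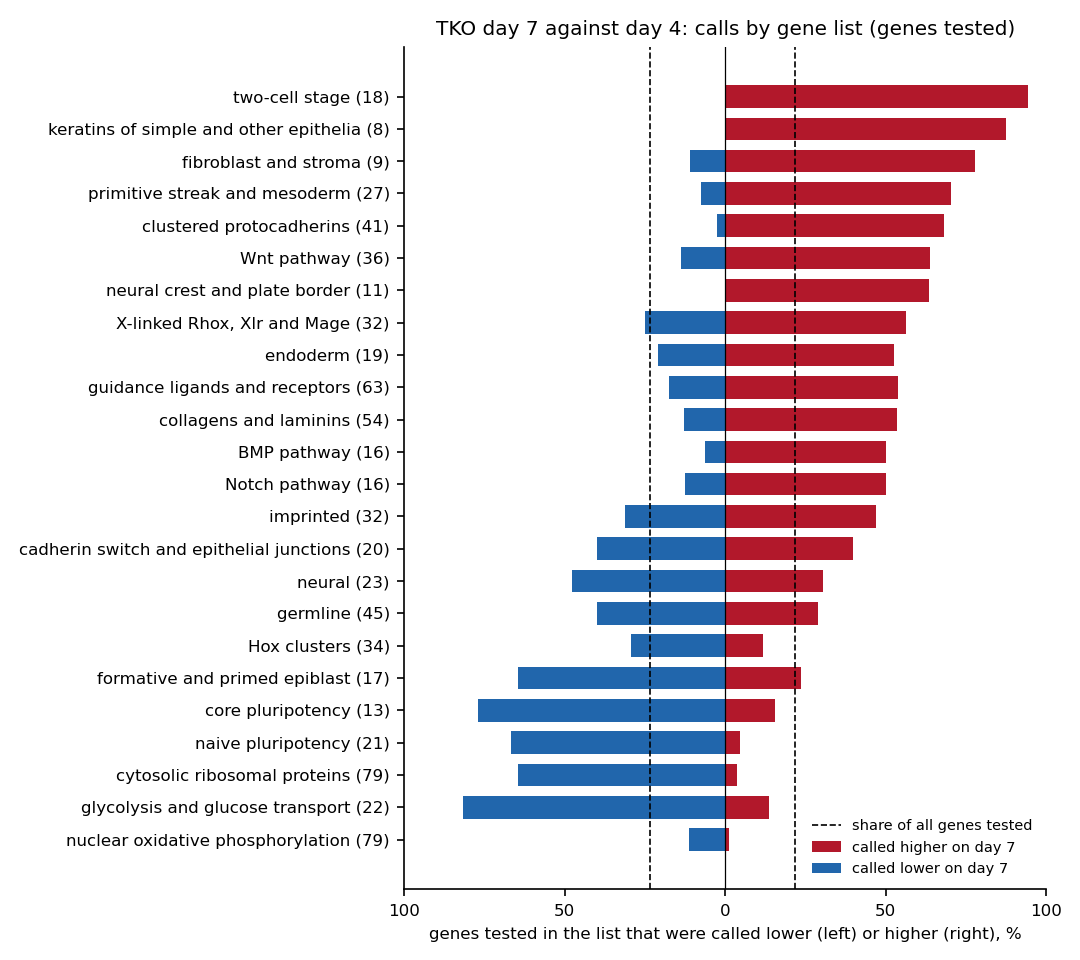
Share of the tested genes in each of 24 lists that were called lower (blue, left) or higher (red, right) in TKO cells on day 7 against day 4, in percent, with the number tested in parentheses. Dashed lines mark the 23.5% lower and 21.9% higher over all genes tested. The two-cell stage list reaches 17 of 18 higher and the glycolysis list 18 of 22 lower. Copies within the two-cell list share sequence, so its members are not separate observations.

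Primitive streak and mesoderm genes rose together. Of 27 tested, 19 were called higher and 2 lower, against a background of 21.9% higher, and their median log2 fold change was 3.40. The summed level of the list went from 74.1 and 41.0 CPM to 1315 and 1364 CPM. T (Brachyury, chr17:8434423-8442496, GRCm38), the T-box factor that defines the streak, went from 5.71 and 1.03 CPM to 516 and 527 CPM (log2 fold change 7.25 ± 0.75, adjusted p = 3.61e-05). Both day 7 libraries lay far above both day 4 libraries, and the rise passed the test without either day 4 library. In WT cells T reached only 51.6 and 42.9 CPM on day 7 from 3.81 and 15.1 CPM, and the TKO rise was larger by 4.91 on the log2 scale (interaction, adjusted p = 0.0041). Per transcript length, T was at 666 TPM in TKO cells on day 7 and at 53.8 TPM in WT cells.

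Mixl1, a homeobox factor of the early streak, rose from 0.50 and 0.368 CPM to 75.1 and 85.5 CPM (7.51 ± 0.30, adjusted p = 1.26e-09). It was about as low on day 4 in WT cells and reached only 7.56 and 6.17 CPM there, a difference between the steps of 4.01 (adjusted p = 3.1e-05). Eomes, the T-box factor upstream of mesendoderm, went from 5.38 and 2.62 CPM to 149 and 151 CPM (5.22 ± 0.38), with a smaller difference from WT of 2.21 (adjusted p = 0.0079). Sp5, a direct Wnt target, rose from 0.271 and 0.115 CPM to 20.7 and 23.1 CPM against 1.54 and 1.57 CPM in WT on day 7. Gsc, the organizer homeobox gene, rose to like levels in both genotypes, 28.7 and 33.3 CPM in TKO and 31.3 and 22.6 CPM in WT. The difference between its steps was -0.40 and was not called (interaction, adjusted p = 0.62). With 2 libraries per group, a difference that is not called may still be present.

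Members with a posterior or paraxial role also appeared. Cdx2, which patterns the posterior body and also marks trophoblast, rose from 0.146 and 0.0920 CPM to 7.30 and 7.36 CPM. Msgn1, a factor of the presomitic mesoderm, was represented by 2 counts over both day 4 libraries and 475 on day 7, a ratio of 306 (95% counting interval 84.2 to 2530). Tbx6, which is named after its values were seen, went from 1.25 and 1.17 CPM to 8.94 and 10.7 CPM while it fell in WT cells (difference 4.60). Kdr, the VEGF receptor of early blood and vessel precursors, went the other way, from 11.3 and 11.3 CPM to 3.25 and 2.67 CPM (-1.93 ± 0.27), and Cdx4 was the other member called lower. The other 6 members, Hand1, Hand2, Foxc1, Foxf1, Mesp2 and Wnt3a, were not called. The test of the difference between genotypes called 13 of the 27 members larger in TKO and 3 smaller.

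Some single genes known from the node and notochord, which form no list here, also rose. Noto, the homeobox gene of the node and notochord, went from 0.0208 and 0.0690 CPM to 52.7 and 51.3 CPM (log2 fold change 10.12, adjusted p = 5.33e-09). Its day 4 level rested on very few counts, so the size of this rise is uncertain. WT cells had 0 counts on day 4 and only 0.507 and 0.555 CPM on day 7, at least 18.7-fold higher than day 4 when 3 counts in the group are taken as the floor. The difference between the steps was not called for Noto (adjusted p = 0.878), whereas both TKO day 7 libraries lay far above both WT ones. Shh, the notochord morphogen, rose from 0.250 and 0.0920 CPM to 39.0 and 37.1 CPM, and in WT cells to 30.7 and 23.6 CPM (difference -0.01, not called). The BMP antagonists of the same structure rose as well, Chrd from 4.35 and 5.13 CPM to 85.6 and 102 CPM and Nog from 0.104 and 0.0460 CPM to 12.8 and 13.3 CPM. Foxa2, a forkhead factor shared by node and endoderm (chr2:148042877-148046969), went from 1.5 and 1.22 CPM to 89.9 and 106 CPM (6.16 ± 0.52, adjusted p = 3.97e-06). Its rise was larger in TKO than in WT cells by 3.48 (adjusted p = 0.0035).

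Endoderm genes were split. Of 19 tested, 10 were called higher and 4 lower, with a median of 1.18, while in WT cells 13 were called higher with a median of 3.50. The test of the difference called 12 members smaller in TKO and 1, Foxa2, larger. In sum the list went from 263.9 and 172.2 CPM to 446.5 and 489.7 CPM in TKO cells. In WT cells it went from 247.0 and 218.1 CPM to 522.1 and 409.2 CPM, so the summed day 7 levels overlapped. The largest member of the TKO sums was Apoe on day 4 and Cer1 on day 7. Sox17, the definitive endoderm factor, went from 1.54 and 0.782 CPM to 4.40 and 5.04 CPM (2.01 ± 0.34). In WT cells Sox17 started lower, at 0.0862 and 0 CPM, and reached 40.8 and 29.2 CPM, so the TKO rise was smaller (difference -7.44 on the log2 scale, adjusted p = 6.9e-06). That contrast rests on a WT day 4 level near 0, and on day 7 both TKO libraries lay below both WT libraries. Gata6, another endoderm factor, followed the same pattern, from 3.73 and 1.08 CPM to 11.7 and 11.9 CPM in TKO and from 0.103 and 0.0627 CPM to 18.5 and 12.2 CPM in WT. Its contrast also rests on a WT day 4 level near 0, and the day 7 levels lay close.

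Cer1, a secreted Nodal and Wnt antagonist of anterior endoderm, reached 219 and 243 CPM in TKO and 209 and 154 CPM in WT. Its rise was smaller in TKO (difference -3.96, adjusted p = 0.0231), from a WT day 4 level of 0.172 and 0.125 CPM against 5.23 and 0.759 CPM in TKO. Cxcr4, the chemokine receptor used to sort definitive endoderm, rose from 1.81 and 1.31 CPM to 13.1 and 13.2 CPM in TKO but to 53.1 and 36.6 CPM in WT (difference -2.23, adjusted p = 0.00019). Apoe, the lipid carrier of visceral endoderm and other cells, fell from 173 and 140 CPM to 35.9 and 34.7 CPM. Cubn and Hnf4a, both visceral endoderm genes, lost their lower calls without day 4 replicate 1 (adjusted p = 0.061 and 0.81). Leaving out day 4 replicate 1 left 1 member called lower, leaving out day 4 replicate 2 gave 7, and leaving out day 7 replicate 1 gave 2. Hnf4a rose in WT cells, to 5.19 and 3.28 CPM, and was at 0.230 and 0.248 CPM in TKO cells on day 7.

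**Figure D2:**
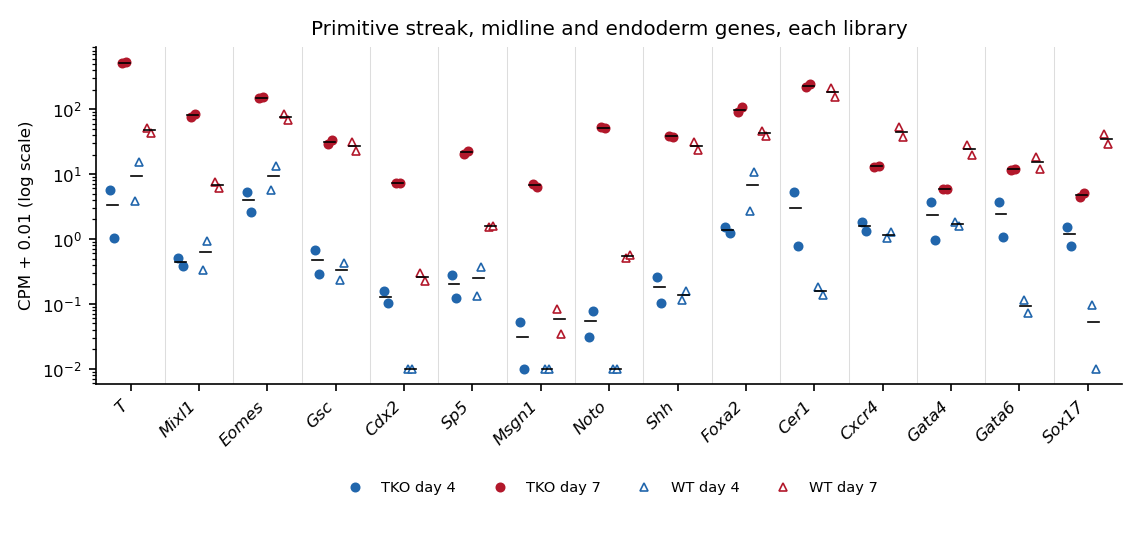
CPM plus 0.01 of 15 streak, midline and endoderm genes on a log axis, with 1 point per library (filled circles TKO, open triangles WT, blue day 4, red day 7) and a black line at each group's mean. T, Mixl1, Sp5, Msgn1, Noto and Foxa2 lie higher in TKO than in WT on day 7, and Cxcr4, Gata4 and Sox17 lie lower; the 2 TKO day 4 libraries are visibly apart for T and Cer1.

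Pluripotency genes moved the opposite way. Of 21 naive genes tested, 14 were called lower and 1 higher, with a median of -2.25. That median depended on the day 4 library kept: it was -1.44 without day 4 replicate 1 and -2.68 without day 4 replicate 2. Of 13 core genes, 10 were lower and 2 higher, with a median of -0.58. Dppa5a, an RNA-binding protein of naive cells, fell from 551 and 275 CPM to 10.3 and 9.81 CPM (-5.36 ± 0.46, adjusted p = 5.92e-06). Fgf4, the autocrine growth factor of the epiblast, fell from 48.8 and 65.5 CPM to 2.30 and 2.40 CPM (-4.60 ± 0.17, adjusted p = 9.06e-10). Fgf4 ended below the 6.52 and 7.02 CPM of WT day 7 although it began above WT, and its fall was larger (difference -3.17, adjusted p = 1.1e-06). Zfp42 (Rex1) fell from 24.0 and 13.6 CPM to 2.87 and 3.09 CPM, and Esrrb from 37.3 and 14.3 CPM to 5.29 and 5.26 CPM. The member called higher was Klf4, from 4.67 and 5.77 CPM to 6.87 and 9.09 CPM, a call lost without day 4 replicate 1 (adjusted p = 0.104) or day 7 replicate 2 (adjusted p = 0.16).

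Core factors fell less far. Pou5f1 (Oct4) went from 808 and 963 CPM to 593 and 595 CPM (-0.58 ± 0.13, adjusted p = 0.0022), a level that stayed high in every library. Nanog went from 307 and 268 CPM to 218 and 219 CPM (-0.39 ± 0.11), and without day 4 replicate 1 it did not pass the test (adjusted p = 0.067). Sox2, the partner of Oct4, fell from 39.9 and 22.4 CPM to 15.4 and 16.8 CPM, whereas it rose in WT cells from 33.8 and 42.1 CPM to 59.1 and 53.9 CPM (difference -1.53, adjusted p = 0.0027). Utf1, a chromatin protein of pluripotent cells, fell from 163 and 195 CPM to 27.2 and 27.5 CPM. Sall4, a zinc finger factor of pluripotent cells, rose from 97.5 and 87.0 CPM to 148 and 153 CPM. Lin28a was not called, at 270 and 258 CPM against 277 and 241 CPM.

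Formative and primed genes did not move as one. Of 17 tested, 4 were called higher and 11 lower, with a median of -1.13. Fgf5, the marker of the postimplantation epiblast, rose from 72.2 and 113 CPM to 284 and 293 CPM (1.64 ± 0.21, adjusted p = 8.36e-05). Wnt8a, a Wnt ligand of the posterior epiblast, rose from 13.1 and 2.25 CPM to 44.1 and 44.6 CPM and fell in WT cells from 13.7 and 55.7 CPM to 1.88 and 1.40 CPM. Its rise did not pass the test without day 4 replicate 2 (adjusted p = 0.059). Pou3f1 (Oct6), in contrast, fell from 67.4 and 90.6 CPM to 20.4 and 17.3 CPM (-2.07 ± 0.16), further than in WT (difference -1.48). Otx2, the formative homeobox factor, fell from 128 and 147 CPM to 97.4 and 98.7 CPM and Slc7a3, an amino acid transporter, from 349 and 493 CPM to 117 and 109 CPM.

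Neural genes went both ways. Sox1, the earliest neural plate factor, went from 56.4 and 74.3 CPM to 11.5 and 10 CPM (-2.60 ± 0.16, adjusted p = 4.1e-08), further than in WT (difference -1.81). Pax6 fell from 17.2 and 13.5 CPM to 1.64 and 1.27 CPM. Of 23 neural genes, 11 were called lower and 7 higher, and the lower count was 6 or 7 without day 4 replicate 2 or either day 7 library. Nes, an intermediate filament also present in epiblast, was among the higher ones, from 103 and 179 CPM to 426 and 413 CPM. The others called higher were Dcx, Six3, Irx3, Fabp7, Ncam1 and Stmn2, with Dcx going from 2.40 and 1.75 CPM to 12.5 and 15.2 CPM. The summed neural list, with Nes its largest member, rose from 366.9 and 462.2 CPM to 635.1 and 632.0 CPM. For markers of other cell types, 7 of 11 neural crest genes, 7 of 9 stromal genes and 4 of 11 trophoblast genes were called higher. The trophoblast share called in either direction (36.4%) lay below the 45.4% over all genes. Of 8 endothelial and blood genes, 1 was called higher and 3 lower, with 2 higher without day 7 replicate 1 and 1 lower without either day 7 library. The trophoblast calls were Eomes, Cdx2, Gata3 and Krt7, which have other roles, and without day 4 replicate 2 there were 3 higher and 2 lower. Tpbpa, Prl3d1, Prl2c2 and Cts7, placental genes, were at most 0.0276 CPM in these 4 libraries. Of the stromal genes, Pdgfrb rose from 2.27 and 2.18 CPM to 22.2 and 19.8 CPM, and Postn reached 4.14 and 4.66 CPM. Dcn was the stromal member called lower, from 5.52 and 19.1 CPM to 2.67 and 3.17 CPM. Summed, the stromal list went from 33.1 and 59.8 CPM to 150.5 and 148.2 CPM in TKO. In WT its sum ended higher, going from 113.1 and 41.4 CPM to 384.6 and 392.9 CPM. The part of stromal genes in other results was not tested.

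Junction and cytoskeletal genes changed alongside. Cdh1 (E-cadherin) fell from 788 and 1116 CPM to 410 and 460 CPM (-1.13 ± 0.13, adjusted p = 1.45e-05), further than in WT (difference -0.75, adjusted p = 0.012). Cdh2 (N-cadherin) rose from 48.9 and 45.1 CPM to 232 and 228 CPM (2.29 ± 0.12, adjusted p = 7.98e-09), with a difference from WT of -0.10 (adjusted p = 0.715). No day 4 library of Cdh1 overlapped a day 7 library, and the same held for Cdh2. The tight junction genes Cldn3, from 33.9 and 41.3 CPM to 1.87 and 2.18 CPM, and Ocln, from 40.6 and 44.0 CPM to 12.1 and 12.5 CPM, fell, as did Grhl2, the epithelial regulator, from 46.2 and 55.2 CPM to 13.0 and 13.4 CPM. Snai1, the repressor of Cdh1 in gastrulation, rose from 1.29 and 0.736 CPM to 9.80 and 11.2 CPM and stayed at 1.38 and 1.25 CPM in WT on day 7 (difference 3.20, adjusted p = 0.00059). Vim (vimentin) rose from 121 and 105 CPM to 439 and 416 CPM. In all, 8 of the 20 genes of this list were called higher and 8 lower.

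Keratins did not follow the epithelial junction genes. Of 8 tested, 7 were called higher and none lower by edgeR, with a median of 2.44. Krt8, a simple-epithelium keratin, went from 23.3 and 13.9 CPM to 140 and 189 CPM (3.14 ± 0.27, adjusted p = 3.23e-06), with a difference from WT of -0.12 (adjusted p = 0.873). Collagens and laminins had 29 of 54 called higher and 7 lower, and 19 higher without day 7 replicate 2. Col2a1, the collagen of notochord and cartilage, rose from 8.15 and 6.16 CPM to 114 and 137 CPM. Col4a1, a chain of basement membrane collagen named after its values were seen, fell from 319 and 133 CPM to 65.7 and 66.1 CPM while it rose in WT.

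**Figure D3:**
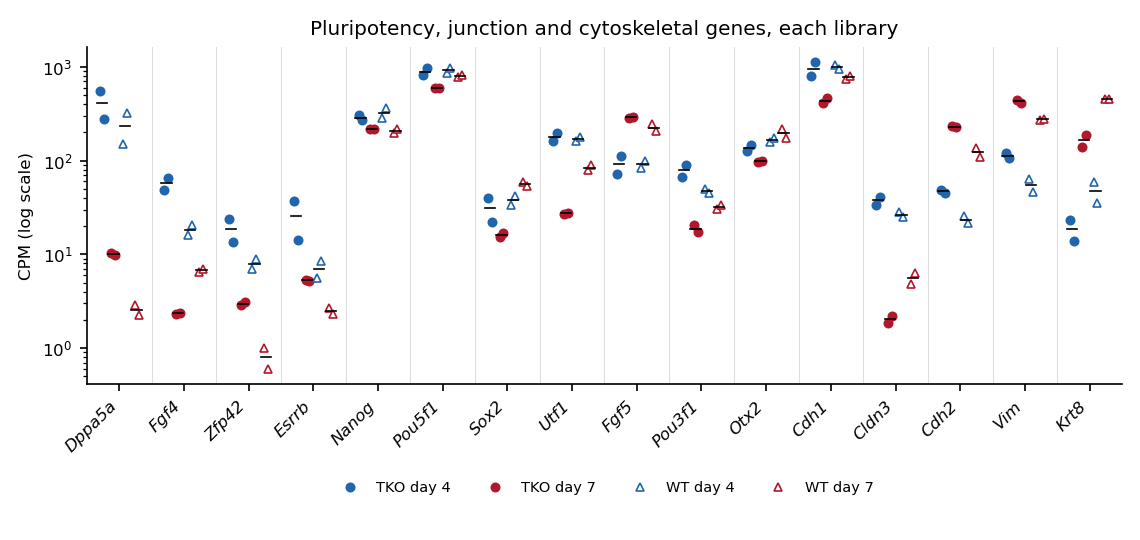
CPM of 16 pluripotency, junction and cytoskeletal genes on a log axis, with symbols as in the plot of streak genes. Dppa5a, Fgf4, Utf1 and Cldn3 fall in both genotypes and lie lower in TKO on day 7 for Fgf4, Utf1 and Cldn3; Sox2 falls in TKO and rises in WT, while Cdh2, Vim and Krt8 rise in both.

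Wnt pathway members were called higher in 23 of 36 cases and lower in 5, with a median of 1.21, and the lower count was 3 without day 7 replicate 2. The ligand Wnt5a rose from 0.708 and 0.667 CPM to 27.1 and 21.1 CPM. The antagonist Frzb rose from 0.375 and 0.161 CPM to 26.6 and 27.9 CPM, with a difference from WT of 0.35 (adjusted p = 0.701). Nkd1, a feedback inhibitor, rose from 13.2 and 11.2 CPM to 60.8 and 62.3 CPM but was not called in WT (difference 2.02, adjusted p = 6.4e-06). Axin2, the general Wnt target, which is named after its values were seen, rose from 22.9 and 15.6 CPM to 50.0 and 51.8 CPM and fell in WT (difference 2.69). The receptor Fzd7 fell from 227 and 307 CPM to 105 and 98.7 CPM.

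Nodal and BMP members went both ways. Of 12 Nodal-Activin genes, 3 were called higher and 4 lower. Fst (follistatin), which binds Activin, rose from 12.3 and 7.38 CPM to 280 and 259 CPM (4.77 ± 0.21, adjusted p = 5.33e-09), more than in WT by 3.41. Gdf3, a Nodal-like ligand, fell from 168 and 148 CPM to 13.8 and 10.7 CPM, and the co-receptor Tdgf1 from 605 and 447 CPM to 275 and 266 CPM, a call lost without day 4 replicate 1 (adjusted p = 0.0675). The ligand Nodal itself, named after its values were seen, was not called, at 146 and 131 CPM against 134 and 131 CPM. Of 16 BMP genes, 8 were called higher and 1 lower. The ligand Bmp2 rose from 1.40 and 0.828 CPM to 22.7 and 20.6 CPM, less than in WT (difference -4.20), while Gata2, a BMP-responsive factor, fell from 3.88 and 1.63 CPM to 0.719 and 0.551 CPM.

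Notch, FGF and guidance genes completed this group. Dll3, the Notch ligand of presomitic mesoderm, rose from 12.0 and 18.2 CPM to 87.3 and 80.3 CPM, more than in WT by 1.82. Jag2, another ligand, fell from 67.4 and 60.8 CPM to 19.3 and 19.2 CPM and was not called in WT. Of 14 FGF-ERK targets, 5 were called lower and 3 higher, and 1 or 2 higher without day 4 replicate 2 or either day 7 library. Etv5 and Spry1, which respond to FGF-ERK signalling, fell, Etv5 from 592 and 578 CPM to 234 and 209 CPM and Spry1 from 62.1 and 59.3 CPM to 27.0 and 21.5 CPM. Guidance ligands and receptors had 34 of 63 called higher and 11 lower. Ntn1 (netrin), a midline cue, rose from 2.94 and 3.49 CPM to 79.0 and 84.9 CPM (4.67 ± 0.16, adjusted p = 5.42e-10), and Plxna2, a semaphorin receptor, from 11.7 and 9.45 CPM to 113 and 119 CPM. Clustered protocadherins had 28 of 41 called higher and 1 lower, with a median of 1.34 in TKO and 1.21 in WT. Members of the alpha and gamma clusters share their last exons, so single members are uncertain.

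Hox genes stayed low and gave counts that moved with single libraries. Of 34 tested, 4 were called higher and 10 lower, a called share of 41.2% against 45.4% over all genes. Summed levels were 76.1 and 19.3 CPM on day 4 and 22.3 and 13.5 CPM on day 7. Without day 4 replicate 1 there were 5 higher and 4 lower, without day 4 replicate 2 there were 2 and 13, and without day 7 replicate 1 and 2 there were 2 and 10 and 4 and 6. Hoxa5 went from 6.81 and 2.05 CPM to 0.230 and 0.0551 CPM. Hoxb1, the first Hox gene expressed in the streak, went up from 0.583 and 0.299 CPM to 2.59 and 2.73 CPM.

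Most glycolysis genes fell. Of 22 glycolysis genes, 18 were called lower and 3 higher, against a background of 23.5% lower, with a median of -0.88. Their summed level went from 16450 and 16100 CPM to 8871 and 8771 CPM, while the WT libraries ranged from 18040 to 22870 CPM. Slc2a1 (Glut1), the main glucose transporter, fell from 780 and 1044 CPM to 143 and 137 CPM (-2.70 ± 0.12, adjusted p = 4.01e-09). Pdk1, a kinase that inhibits pyruvate dehydrogenase, fell from 351 and 302 CPM to 34.0 and 34.0 CPM (-3.26 ± 0.11, adjusted p = 4.26e-10), further than in WT (difference -2.23, adjusted p = 4.5e-07). Pkm, Gapdh and Aldoa fell by less, Pkm from 2859 and 2857 CPM to 1564 and 1567 CPM. The difference between genotypes was called for 17 of the 22 genes, 16 of them lower in TKO.

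The hypoxia list gave a like result for part of its members, with 6 of 11 called lower and 1 higher. Bnip3, a mitophagy receptor and target of Hif1, fell from 61.5 and 70.1 CPM to 7.79 and 8.35 CPM (-3.03 ± 0.20) and was not called in WT, where it ended at 84.1 and 92.8 CPM (difference -2.70, adjusted p = 2.2e-05). Ndrg1, also a hypoxia target, went against the others, from 18.3 and 18.4 CPM to 58.6 and 72.3 CPM, and fell in WT. Cytosolic ribosomal protein genes were lower in 51 of 79 cases and higher in 3, with a median of -0.47 and a summed level of 58530 and 61250 CPM against 42880 and 42410 CPM. Without day 7 replicate 2 the lower count was 31. Of the 3 higher ones Rpl10l and Rpl39l are testis-expressed copies, at 22.4 and 23.7 CPM and at 20.9 and 22.5 CPM on day 7 and 0 in both WT day 7 libraries. By contrast, 69 of 79 nuclear genes of oxidative phosphorylation were not called, 9 were lower and 1 higher, and the lower count was 4 without either day 7 library.

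Interferon and stress genes were mixed. Of 19 interferon-response genes, 4 were called higher and 8 lower, and 5 lower without day 7 replicate 2. Mx1, an antiviral GTPase, rose from 2.81 and 2.67 CPM to 24.5 and 27.6 CPM (3.25 ± 0.14, adjusted p = 2.19e-09) and was not called in WT, at 1.45 and 1.59 CPM on day 7 (difference 2.95, adjusted p = 9.1e-07). Bst2 (tetherin) fell from 248 and 251 CPM to 70.1 and 60.2 CPM, and Rsad2 (viperin) from 16.2 and 18.9 CPM to 2.56 and 2.56 CPM. Cdkn1a (p21), the p53 target that restrains the cell cycle, rose from 141 and 132 CPM to 260 and 266 CPM, and 7 of 20 p53 targets were called higher and 5 lower.

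Two-cell stage genes rose in TKO and fell in WT. Of 18 tested, 17 were called higher, none lower, in the TKO step by edgeR, with a median of 3.57, and 16 were called lower in the WT step. Many of these members are Zscan4 copies, which share sequence, or Usp17l family genes, which were not searched for it. The counts are therefore not of separate observations. Zscan4 genes mark a passing state of a few embryonic stem cells in which transcripts of the two-cell embryo appear. Zscan4f (chr7:11397915-11402318) went from 17.5 and 5.45 CPM to 93.5 and 180 CPM (3.57 ± 0.57, adjusted p = 0.000768). Day 7 lay above day 4 in all libraries, though the replicates of a day were far apart. In WT cells it went from 4.19 and 9.07 CPM to 0 counts in both day 7 libraries, at least 177-fold lower with the same floor. Usp17le, a deubiquitinase gene of the same state, rose from 5.08 and 1.45 CPM to 42.9 and 72.8 CPM, and Duxf3 (Dux), the factor that drives that state, from 0.354 and 0.414 CPM to 4.71 and 7.77 CPM.

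The Zscan4 copies share most of their sequence. The main transcript of Zscan4f matched 9 other genes over at least 200 bases at 95% identity or more, for example Zscan4c over 1747 bases at 99.7%, so the split of counts among copies is uncertain. The summed list, which depends less on that split, went from 66.0 and 23.6 CPM to 412.5 and 741.6 CPM. Earlier the sum was lower still in TKO cells, at 1.17 and 1.79 CPM on day 0 and 2.60 and 3.64 CPM on day 2. Both WT day 7 libraries were under 1 CPM in sum, at 0.821 and 0.675 CPM.

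Germline genes, which DNA methylation normally silences, were split in TKO cells but fell in WT cells. Of 45 tested, 13 were called higher and 18 lower, with a median of -0.17, and 11 were lower without day 4 replicate 1. In WT cells 36 were called lower and 1 higher, and the difference was called larger in TKO for 34 and smaller for none by edgeR. The promoters of the 4 called members with the lowest adjusted p are shown, since they went both ways. They are the 250 bases before the RefSeq gene start (GRCm38.p6), 5′ to 3′ on the gene's strand, with each CACGTG, an E-box that Max binds with its partners, in capitals.

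Dmc1 (lower, chr15:79605110-79605359, minus strand): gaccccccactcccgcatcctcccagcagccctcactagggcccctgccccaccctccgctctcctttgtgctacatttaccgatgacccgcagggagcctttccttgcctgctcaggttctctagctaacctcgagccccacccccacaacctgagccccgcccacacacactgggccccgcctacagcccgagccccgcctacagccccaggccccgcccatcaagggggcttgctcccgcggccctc
Sycp3 (lower, chr10:88459337-88459586, plus strand): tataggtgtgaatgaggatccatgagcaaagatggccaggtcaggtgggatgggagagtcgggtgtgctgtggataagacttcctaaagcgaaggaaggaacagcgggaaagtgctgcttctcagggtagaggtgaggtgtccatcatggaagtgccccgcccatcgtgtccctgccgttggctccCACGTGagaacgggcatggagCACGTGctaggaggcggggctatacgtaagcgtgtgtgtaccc
Cyct (lower, chr2:76360454-76360703, minus strand): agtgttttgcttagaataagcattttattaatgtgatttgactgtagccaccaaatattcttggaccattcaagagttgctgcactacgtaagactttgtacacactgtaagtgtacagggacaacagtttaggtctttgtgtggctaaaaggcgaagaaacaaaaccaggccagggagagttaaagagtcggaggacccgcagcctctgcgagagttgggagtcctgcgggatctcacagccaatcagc
Dazl (higher, chr17:50293621-50293870, minus strand): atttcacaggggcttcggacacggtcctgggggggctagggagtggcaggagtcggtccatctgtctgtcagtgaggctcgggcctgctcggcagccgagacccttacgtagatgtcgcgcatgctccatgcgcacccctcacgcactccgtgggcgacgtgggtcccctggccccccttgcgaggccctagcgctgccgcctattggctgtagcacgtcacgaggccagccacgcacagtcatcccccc

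Of these 4 only Sycp3 held the motif, at 2 places. CACGTG reads the same on both strands, and it was found in 15 of the 39 germline promoters that matched the RefSeq table (38.5%) and in 1634 of all 27025 promoters of the table (6.05%). It was in 4 of 11 matched promoters of members called higher and in 7 of 15 of members called lower, so it did not separate the directions. A match describes these letters only.

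Dazl, which binds RNA in germ cells, rose from 7.50 and 7.54 CPM to 26.4 and 21.2 CPM (1.66 ± 0.17, adjusted p = 5.01e-06). In WT cells it had 199 counts on day 4 and 1 on day 7, a ratio of 156 (95% counting interval 27.7 to 6190). Asz1, of the piRNA pathway, rose from 21.7 and 29.9 CPM to 49.6 and 50.8 CPM and had 0 counts in both WT day 7 libraries. Tex15, another piRNA pathway gene, rose from 18.0 and 8.16 CPM to 82.2 and 88.2 CPM (2.70 ± 0.28), while the WT step was not called. Tdrkh was the member called higher in both genotypes, from 30.8 and 25.9 CPM to 55.9 and 55.9 CPM in TKO.

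Other germline members fell. Dmc1, the meiotic recombinase, fell from 5.46 and 5.43 CPM to 0.719 and 0.468 CPM (-3.19 ± 0.23, adjusted p = 1.52e-07), with a difference from WT of -0.09 (adjusted p = 0.882). Smc1b, a meiotic cohesin, fell from 22.6 and 16.5 CPM to 2.59 and 2.48 CPM. Sycp3, of the synaptonemal complex, fell from 6.75 and 8.35 CPM to 1.87 and 2.23 CPM, less than in WT by 2.23 (adjusted p = 3.2e-05). The testis cytochrome Cyct fell from 9.42 and 10.6 CPM to 0.920 and 1.68 CPM.

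The X-linked Rhox, Xlr and Mage families had 18 of 32 tested called higher and 8 lower, with a median of 0.88; 14 fell and none rose in WT by edgeR. Mageb4 rose from 3.15 and 3.89 CPM to 26.4 and 28.1 CPM (2.96 ± 0.21) and had at most 0.0418 CPM in the WT libraries of both days. Xlr rose from 3.73 and 6.35 CPM to 19.0 and 19.7 CPM, and Xlr3a fell from 108 and 109 CPM to 58.7 and 63.4 CPM. The lower count was 4 without day 4 replicate 2, 2 without day 7 replicate 1 and 4 without day 7 replicate 2. Near-identical copies within Rhox and Xlr make single members uncertain.

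Imprinted genes were called higher in 15 of 32 cases and lower in 10. Grb10, an adaptor that dampens insulin signalling (chr11:11930508-12038683), fell from 133 and 99.0 CPM to 7.73 and 7.22 CPM (-3.96 ± 0.17, adjusted p = 2.69e-09) and rose in WT from 112 and 93.2 CPM to 228 and 181 CPM (difference -4.95, adjusted p = 1.8e-08). Asb4, in contrast, rose from 3.10 and 3.52 CPM to 186 and 180 CPM, with a difference from WT of 0.34 (adjusted p = 0.51). Peg3 rose from 298 and 422 CPM to 1113 and 974 CPM, and Peg10 from 725 and 313 CPM to 1760 and 1743 CPM, the latter less than in WT (difference -1.76, adjusted p = 0.0255). Mest rose from 899 and 484 CPM to 1415 and 1425 CPM.

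**Figure D4:**
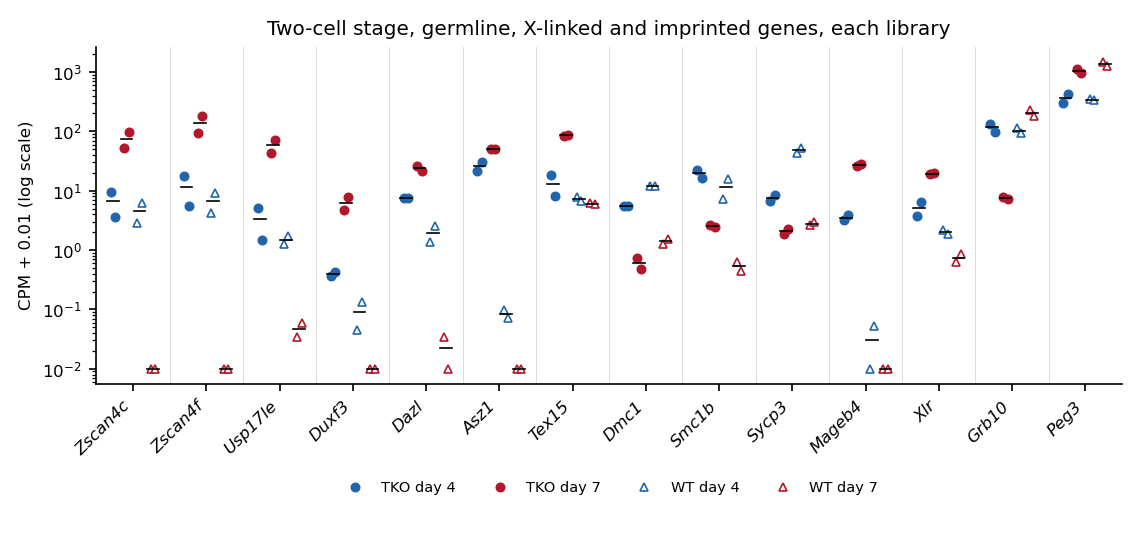
CPM plus 0.01 of 14 two-cell stage, germline, X-linked and imprinted genes on a log axis, with symbols as in the plot of streak genes. Zscan4c, Zscan4f, Usp17le, Duxf3, Dazl and Mageb4 rise in TKO and are at or near 0 in WT on day 7; Dmc1, Smc1b and Sycp3 fall in both genotypes; Grb10 falls in TKO and rises in WT.

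The 4 largest rises in CPM belonged to genes with shared sequence. Noct, the nocturnin gene (chr3:51224447-51251644), went from 640 and 984 CPM to 13347 and 14546 CPM (4.10 ± 0.16, adjusted p = 1.26e-09), and fell in WT from 312 and 296 CPM to 151 and 154 CPM (difference 5.10, adjusted p = 1.8e-08). Slc38a6 (chr12:73286779-73354049) went from 604 and 948 CPM to 11112 and 11504 CPM, and Rab3gap1 (chr1:127868773-127943868) from 158 and 219 CPM to 2368 and 2413 CPM. D10Wsu102e (chr10:83360221-83488505) went from 3825 and 3847 CPM to 10222 and 10282 CPM. On day 7 the 4 genes were higher in both TKO libraries than in any day 4 library of either genotype.

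On day 7 a single transcript held 96.0% and 95.9% of the counts of Noct, 99.9% of those of Slc38a6 and 98.0% and 98.1% of those of Rab3gap1. Those transcripts resemble one another: that of Noct matched that of Slc38a6 over 3243 bases at 98.5% identity, that of Rab3gap1 over 1337 bases at 96.8% and that of D10Wsu102e over 3497 bases at 95.5%. In all, the Noct transcript shared at least 200 bases at 95% identity with 39 other genes. The counts of these 4 genes therefore cannot be assigned to 1 locus, and no sequence is shown. T, Mixl1, Noto, Foxa2 and Eomes shared no such stretch with any other gene.

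Other large rises followed no single list. Samd3 rose from 0.167 and 0.0230 CPM to 45.1 and 50.1 CPM, and Apln (apelin), a peptide of early mesendoderm and vessels, from 0.750 and 0.529 CPM to 135 and 121 CPM. Pcdh7, a protocadherin outside the clusters, went from 0.250 and 0.253 CPM to 53.7 and 58.3 CPM, with a difference from WT of -0.28 (adjusted p = 0.774). Defa30 had 0 counts on day 4 and 881 on day 7, at least 378-fold higher with that floor, and shares sequence with 5 other genes. Sprr2a2 and Sprr2a3, near-identical cornified envelope genes, were under 1 CPM on day 4 and reached 171 and 118 CPM and 20.0 and 14.9 CPM. Among the falls, Spon1 (F-spondin) went from 104 and 178 CPM to 3.85 and 3.36 CPM (-5.29 ± 0.24), Cldn5 from 10.3 and 11.0 CPM to 0.374 and 0.220 CPM, and Prph (peripherin) from 20.1 and 24.2 CPM to 1.01 and 1.27 CPM.

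The TKO step was set against the WT step, which shares no library with it. WT day 7 against day 4 gave 6811 calls (36.8% of the same genes), 17.7% higher and 19.1% lower. Both steps called 4115 genes with the same sign, 49.1% of the TKO calls and 60.4% of the WT calls, and 494 with opposite signs. Across genes, which are not independent replicates, the 2 sets of log2 fold changes had a Pearson correlation of 0.348 and a Spearman correlation of 0.445. The interaction called 3471 genes (18.8%), 8.96% larger and 9.81% smaller in TKO, among them 2551 (30.4%) of the TKO calls. Of the genes with opposite signs, 287 rose in TKO and fell in WT, Zscan4f and Dazl among them, and 207 did the reverse, Grb10 and Sox2 among them. Sfrp5, a Wnt antagonist of anterior endoderm, differed by -9.24 between the steps, at 0.0862 and 0.0826 CPM in TKO on day 7 and at 31.5 and 23.5 CPM in WT. Spp1 (osteopontin) fell from 12.8 and 22.6 CPM to 1.64 and 1.43 CPM in TKO and rose in WT to 14.4 and 20.0 CPM.

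**Figure D5:**
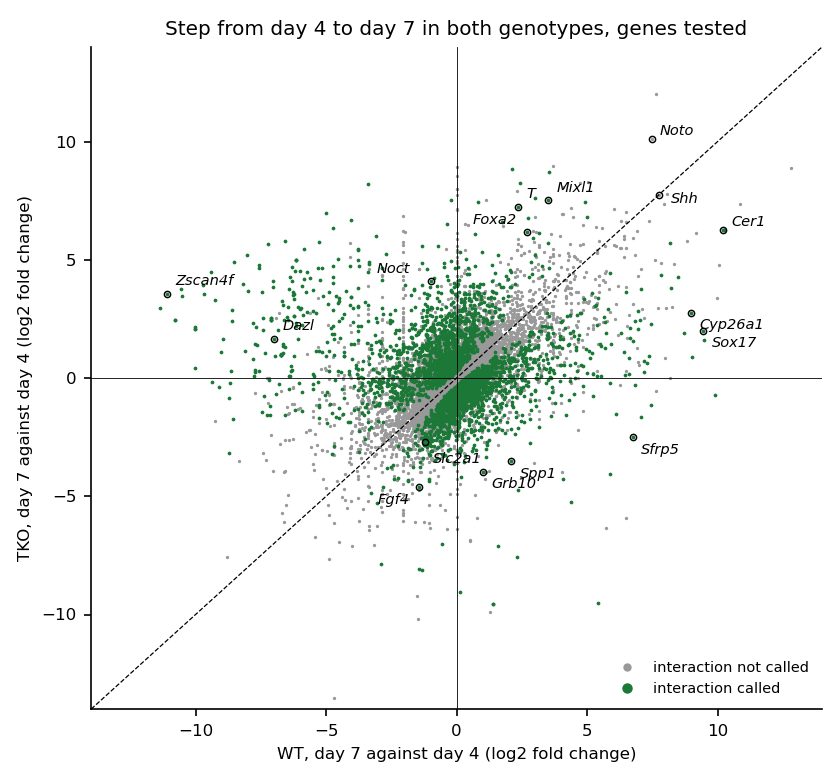
Log2 fold change from day 4 to day 7 in WT (horizontal) and TKO (vertical) for the 18489 genes tested, green where the interaction was called (3471 genes) and grey elsewhere; the dashed line marks equal change. Zscan4f, Dazl and Noct lie upper left, Grb10, Spp1 and Sfrp5 lower right, and Shh near the line; values of genes with 0 counts in a group depend on the prior count.

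Calls were spread over the genome. Between 40.1% and 49.6% of the genes tested on each autosome and 47.4% on chromosome X were called, with medians between -0.11 and 0.06. On chromosome Y, 14 of 27 genes were called higher and none lower by edgeR, with a median of 1.26 against 0.00 in WT.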

How the data were processed

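Bulk polyA RNA (TruSeq Stranded mRNA, per the labels' protocols) was measured in 16 libraries of 8 groups. The authors deposited estimated counts and TPM for each transcript, made with kallisto, per the submitters' processing notes, which also name GRCm38 and mm10; version and annotation are not given in the sources used here. The deposited effective length of each transcript (a length in bases) entered only an alternative. Transcript IDs without version were matched to GENCODE vM21, 116728 of 119414 (97.8%); unmatched transcripts held 0.946 to 1.05% of the counts and were left out. The estimated counts of a gene's transcripts were added and rounded to whole numbers. TPM is given only where levels are set beside each other per length.

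Genes were kept by filterByExpr, scaled by TMM and tested with edgeR 4.0.16 (limma 3.58.1, R 4.3.3) in a robust quasi-likelihood fit of all 16 libraries with 1 mean per group (residual df 8), so that groups of 2 share an estimate of spread. P-values were adjusted by Benjamini and Hochberg across the whole table, and below 0.05 a gene counted as called. The interaction is the TKO step minus the WT step on the log2 scale. Values after ± (SE) are the absolute log2 fold change divided by the square root of the test's F statistic. They do not cover counting error near 0 counts, where they can be too small. The same code was tested on simulated data. With 1 to 3 counts in a group, ratios have 95% counting intervals, and against 0 counts a floor of 3 counts was used; both cover counting error only. Shared sequence was searched with BLAST 2.17.0+ among transcripts of 97 genes against all transcripts, at 200 bases and 95% identity or more. Promoters are from RefSeq.

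The comparison and the 43 gene lists were chosen with earlier results of these data known. Named genes were the methylation genes, the 15 largest rises and falls at 5 CPM or more without overlap, the 10 largest CPM rises and falls, for each list the 4 called members of lowest adjusted p that rose and the 4 that fell, a marker list, and the 8 largest interactions in each direction. Alternatives were DESeq2 1.42.0, RLE scaling, an effective-length offset, other filters, a fit of the compared libraries only, a replicate block, and leaving out each library. Some genes that met the naming rule are not reported here.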

Additional observations from a re-analysis of the deposited data

Results flagged for a closer look

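The step from day 4 to day 7 differed between TKO and WT, by the interaction test, for 3471 genes, among them the genes named here. Differences are the TKO step minus the WT step on the log2 scale, and those of genes with 0 counts in a group depend on the prior count and are no bound.

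Among the named genes, two-cell stage genes had the largest differences upward: 14.66 for Zscan4f, 14.02 for Zscan4c, 13.44 for Zscan4b, 13.25 for Zscan4d, 12.14 for Zscan4e, 14.31 for the pseudogene Zscan4-ps2 and 13.88 for Zscan4-ps3. Pramef25 had 12.4. All had at most 1 count in WT on day 7, and near-identical copies make single members uncertain. Germline genes followed with 8.65 for Dazl and 5.67 for Asz1. Among streak and midline genes the differences were 4.91 for T, 4.01 for Mixl1, 3.48 for Foxa2 and 2.21 for Eomes, and Apln had 4.61. Avpr1b, a vasopressin receptor gene, had 6.71, Sprr2a3 5.82 and Sprr2a2 5.17. Noct and genes that share sequence with it or with D10Wsu102e had 5.1 (Noct), 4.9 (Slc38a6), 3.87 (Rab3gap1), 3.4 (Tmem72) and 2.42 (D10Wsu102e).

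Endoderm and signalling genes lay on the other side, with -7.44 for Sox17, -5.16 for Gata6, -2.5 for Gata4, -9.24 for Sfrp5 and -6.21 for Cyp26a1, the enzyme that degrades retinoic acid. Pluripotent and neural genes differed by -3.17 (Fgf4), -1.53 (Sox2), -1.48 (Pou3f1), -0.73 (Otx2), -0.44 (Lin28a), -1.81 (Sox1) and -2.13 (Pax6). Junction genes differed by -0.75 (Cdh1) and -1.97 (Cldn3), and glycolysis genes by -1.47 (Slc2a1) and -0.63 (Pkm). The imprinted genes Grb10 and Peg10 had -4.95 and -1.76. The rest were -7.86 for Pga5, -5.62 for Spp1, -5.53 for Myl3, -5.33 for Prss12, -5.25 for Vwf, -3.23 for Prph, -2.51 for Aldh1b1, -2.24 for Spon1, -1.78 for Doc2a, -1.38 for Trh, -1.14 for Crocc2 and -0.75 for Phc1.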

How the results depend on the processing

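The TKO step gave 8385 calls in the fit reported, 7899 with DESeq2, 8347 with RLE scaling, 7348 with an effective-length offset, 7937 without the filter, 7895 under a stricter filter and 7999 when the fit held the compared libraries alone. Leaving out 1 library gave 6261 to 7262 calls for TKO (3052 to 3427 higher, 3209 to 3835 lower), 4651 to 5647 for WT (2496 to 2909 higher, 2155 to 2747 lower) and 2450 to 3595 for the interaction (1076 to 1557 higher, 1348 to 2038 lower); the day left with 1 library was assumed to vary like the other groups. Of 111 such counts, 5 moved by over 1.5 times, all of them with a library left out. With the replicate number as a block the TKO step gave 8046 calls, WT 6478 and the interaction 3180. The replicate numbers did not mark a shared shift of like sign: of 28 pairs of groups, 3 had deviations with a positive correlation over 0.1. The correlations ran from -0.745, between WT day 0 and WT day 2, to 0.135, so some negative ones were larger in size. TKO day 4 and TKO day 7 had -0.0132. What lies behind the -0.745 was not tested. Of 946 list counts 95 moved by over 1.5 times; with only the libraries compared, endoderm had 1 lower member, Hox 2 higher and 6 lower, and oxidative phosphorylation 17 lower, and with the effective-length offset interferon genes had 2 higher. Of 3652 values of named genes, 172 lost and 5 gained a call and 0 changed sign. The causes were not tested. Depth limits genes of few counts, and groups of 2 leave each call resting on the shared estimate of spread.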

Other observations

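Other gene lists gave the following counts in the same step, to be read against 21.9% called higher and 23.5% lower over all genes tested. Of 20 cholesterol synthesis genes 11 were called higher and 3 lower, with 6 higher without day 4 replicate 1 or day 7 replicate 1 and 1 lower without day 7 replicate 2. Of 13 genes of the integrated stress and unfolded protein responses 8 were called higher and 3 lower, with 1 lower without day 4 replicate 1 or day 7 replicate 2. The next lists had shares of called genes below the 45.4% over all genes. Of 26 Polycomb and germline gene repressors (42.3% called) 7 were called higher and 4 lower, 4 higher without day 4 replicate 2 or either day 7 library, and 3 higher with the effective-length offset. Of 48 replication-dependent histone genes (22.9% called) 10 were called lower and 1 higher. Their median log2 fold change was -0.73, and between -0.52 and -0.70 with a library left out. These libraries held polyA RNA, and the 67 measured members were low. They summed to 48.97 and 53.15 CPM on day 4 and 35.33 and 38.29 CPM on day 7, so these calls rest on few counts per gene.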
